A study of Homo sapiens with 30 samples.

Results

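Cytosolic ribosomal protein genes encode the proteins of the small and large subunits of the ribosome in the cytoplasm. The members were the protein-coding RefSeq genes whose symbols follow the RPL and RPS numbering, with RPLP0, RPLP1, RPLP2 and RPSA, and without the RPS6K kinases and pseudogene symbols. This gave 84 of 20037 protein-coding genes on chromosomes 1 to 22, X and Y: 32 of the small subunit, 49 of the large subunit and 3 of the P stalk. The rule reads gene symbols and no measured value. The members lie on 21 chromosomes, and the median gene is 5046 bp long (range 772 to 27723 bp).

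The data were CUT&RUN peak lists, in which a nuclease tethered to an antibody cuts out the DNA around the bound protein. The cells were wild-type neural progenitor cells, kept in monolayer culture and derived from the human embryonic stem cell line H9, with no edit of RING1 or RNF2. Of 30 samples in the series, 4 wild-type libraries, 2 with an antibody against RING1 and 2 against RNF2, stand behind the 4 lists used here. The lists form set A and set B, with 1 RING1 and 1 RNF2 list each; the labels do not tie a set to a replicate number. No library of an edited genotype or of a control antibody was analysed here, and neither RNA nor cell type markers could be checked from peak lists.

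RING1 and RNF2 are paralogs, the ubiquitin ligases of Polycomb repressive complex 1 (PRC1), which ubiquitinates histone H2A and keeps developmental genes such as the HOX clusters silent. Its best known sites are wide domains over such genes, often rich in CpG dinucleotides. Ribosomal protein genes are the opposite kind of gene: they are transcribed at high rates in nearly every growing cell. Many start transcription at a cytosine within a run of pyrimidines, the beginning of the terminal oligopyrimidine tract that places their mRNAs under growth control.

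The promoters show what the members share in sequence. The stretches below run from 110 bases before the outermost start in the promoter table to the first 20 bases transcribed, 5′ to 3′ on the gene's strand, from RefSeq on GRCh38.p14. Capitals mark CpG dinucleotides. RPLP2, RPL10, RPL28 and RPSA had peaks in RING1 set A and in both RNF2 lists.

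RPLP2 (chr11:809857-809986, + strand): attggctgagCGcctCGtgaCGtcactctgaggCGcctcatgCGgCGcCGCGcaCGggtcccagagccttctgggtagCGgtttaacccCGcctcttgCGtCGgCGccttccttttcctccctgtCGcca
RPL10 (chrX:154397955-154398084, + strand): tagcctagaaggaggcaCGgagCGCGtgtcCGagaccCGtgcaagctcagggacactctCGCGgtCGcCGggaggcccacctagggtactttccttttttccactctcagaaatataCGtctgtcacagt
RPL28 (chr19:55385822-55385951, + strand): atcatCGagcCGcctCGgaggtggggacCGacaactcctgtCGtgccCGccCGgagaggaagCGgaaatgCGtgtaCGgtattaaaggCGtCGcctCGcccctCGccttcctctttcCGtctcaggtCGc
RPSA (chr3:39406610-39406739, + strand): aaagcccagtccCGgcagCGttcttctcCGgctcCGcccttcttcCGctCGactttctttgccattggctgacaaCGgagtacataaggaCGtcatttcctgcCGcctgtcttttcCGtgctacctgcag

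The next 4 members had no peak in any list, and HOXA10 stands for the Polycomb targets. All 9 were chosen for display after their values were seen.

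RPS6 (chr9:19380217-19380346, - strand): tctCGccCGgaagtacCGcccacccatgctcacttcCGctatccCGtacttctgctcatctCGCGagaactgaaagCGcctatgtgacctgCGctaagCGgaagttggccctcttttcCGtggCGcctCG
RPS3 (chr11:75399408-75399537, + strand): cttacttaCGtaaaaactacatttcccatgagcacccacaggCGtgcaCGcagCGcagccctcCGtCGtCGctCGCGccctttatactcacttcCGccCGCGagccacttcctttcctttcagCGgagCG
RPS14 (chr5:150449720-150449849, - strand): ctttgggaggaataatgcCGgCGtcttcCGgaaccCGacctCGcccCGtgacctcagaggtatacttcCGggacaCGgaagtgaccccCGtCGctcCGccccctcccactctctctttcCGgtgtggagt
RPL24 (chr3:101686699-101686828, - strand): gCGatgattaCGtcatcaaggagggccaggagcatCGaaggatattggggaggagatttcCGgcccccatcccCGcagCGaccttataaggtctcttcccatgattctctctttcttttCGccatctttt
HOXA10 (chr7:27179842-27179971, - strand): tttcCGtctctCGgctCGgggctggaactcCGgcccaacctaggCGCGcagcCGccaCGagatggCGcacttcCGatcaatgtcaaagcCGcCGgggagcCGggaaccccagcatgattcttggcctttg

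CpG dinucleotides stood in all 9 stretches, from 7 in RPL24 to 16 in RPL28, with 13 in RPS6 and 13 in HOXA10. The start lies after the first 110 bases. RPL28, RPS6, RPS3, RPS14 and RPL24 held CTCTTT or CTTTC within 10 bases of it, and HOXA10 held neither. The display is not a fair sample in this. Among members in the promoter table, 11 of 18 without a peak and 16 of 49 with RNF2 in set A held CTCTTT or CTTTC there.

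Of the 84 members, 67 matched a promoter entry, which covers 250 bases before to 50 after the start. RPL5, RPL7, RPL8, RPL23, RPL23A, RPL3L, RPL39L and RPS20 were among the 17 without one. CpG dinucleotides were observed at a median of 0.904 of the number expected from base composition in members and 0.761 in all 15842 genes with an entry. A ratio of at least 0.6, called CpG-rich here, was reached by 65 of 67 members (97.0%) and by 65.6% of all genes. RPL6 (0.17) and RPS27A (0.405) lay below it, but the RPL6 entry begins well inside the annotated gene and is not its 5′ end. The entry of RPL26L1 (0.83) also begins inside its annotated gene. CTCTTT or CTTTC stood within 10 bases of the start, gene strand only, in 27 of 67 members (40.3%) and in 3.37% of all promoters. The letters overlap, so 1 stretch can hold both. Other pyrimidine runs at the start, such as that of RPLP2 above, were not counted. These strings are therefore not a count of pyrimidine tracts. CCGGAA, the core of sites of ETS factors such as GABPA, was found on either strand in 55.2% of members and 22.7% of all promoters. ATGGCG, the core of YY1 sites, was found in 35.8% and 14.3%. TATAAA was found in 10.4% and 9.75%, and CACGTG in 5.97% and 8.82%. These matches describe letters in the window and not bound sites.

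Peaks at ribosomal protein genes were common in set A, few in RNF2 set B and absent from RING1 set B. A gene was counted when a peak lay within 2 kb of either annotated end. RNF2 set A had peaks at 63 members (75%), against 56.1% of all protein-coding genes. RING1 set A had peaks at 49 (58.3%), against 45.6%. RNF2 set B had peaks at 19 (22.6%), against 21.7%, and RING1 set B at 0, against 1.32%. For RING1 set B, a list of 659 peaks, the nearest peak to a member lay 46223 bp from RPL28, and 0 of 84 members is set beside 1.32% of all genes. No test was made on shares of genes, because members are not replicates and each list is 1 library. The sources used here give no sequencing depth.

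Set against genes with a CpG-rich promoter, the shares of the 65 members in that class did not stand above the background. The class is defined by the CpG ratio alone and is not matched in other ways. Its promoters had medians of 67.3% GC and 28 CpG dinucleotides, against 59.3% and 23 in the 67 members with an entry. Among genes with a CpG-rich promoter, 75.4% had RNF2 in set A, 61.5% had RING1 in set A and 28.8% had RNF2 in set B. Of the 65 members in that class 47 (72.3%), 36 (55.4%) and 14 (21.5%) did, and in RING1 set B 0 did, against 1.57% of the class. Part of the count over all members comes from the 17 without an entry. In set A, 14 of them had RNF2 (82.4%, against 56.1% of all genes) and 13 had RING1 (76.5%, against 45.6%). No share over all genes without an entry was set beside these. Among all genes with a promoter entry 57.9% were called in RNF2 set A, 47% in RING1 set A and 22.1% in RNF2 set B, and 73.1%, 53.7% and 20.9% of the 67 members did.

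**Figure D1:**
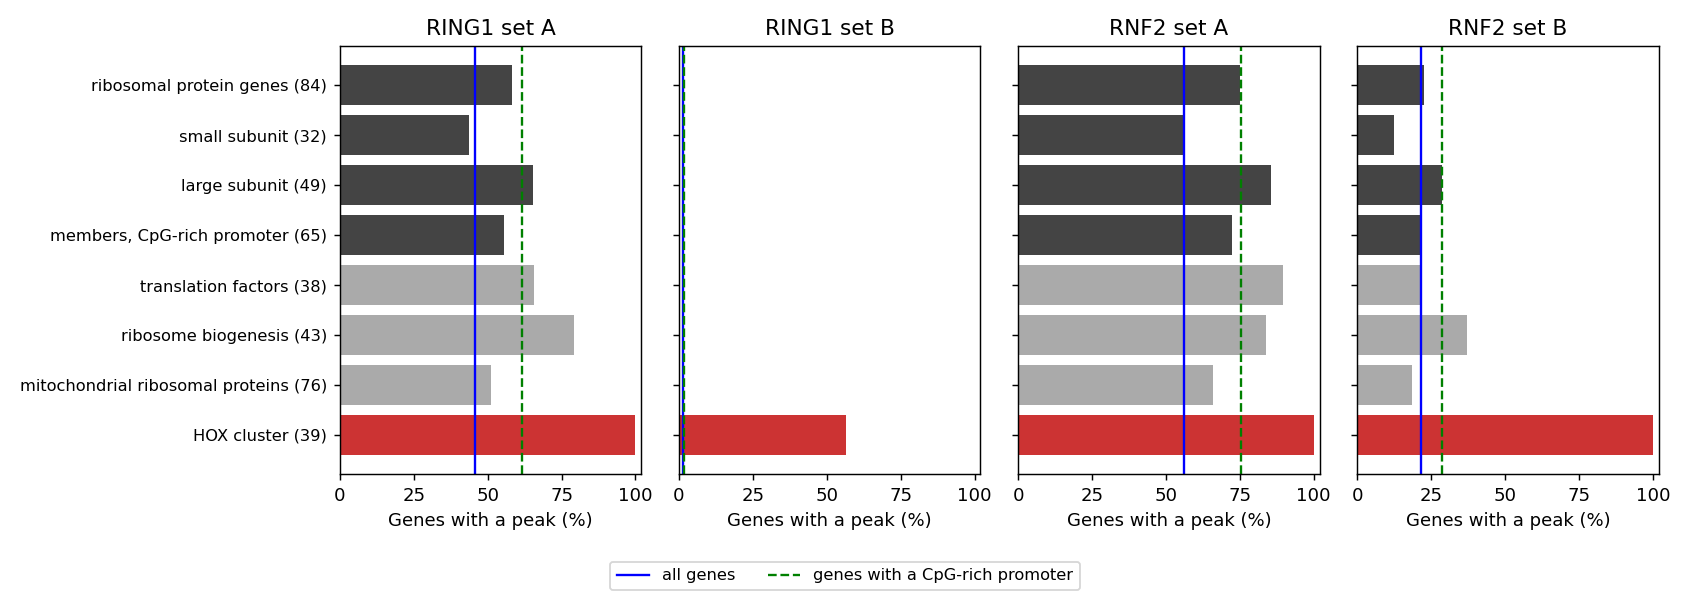
Share of genes with a peak within 2 kb of a gene end (x axis, %) in each of the 4 lists, for the ribosomal protein genes, their subunits and the comparison lists (number of genes in brackets). The solid line is the share of all protein-coding genes and the dashed line that of genes with a CpG-rich promoter; the bar for all members reaches 75% in RNF2 set A and 0 in RING1 set B, while HOX cluster genes reach 100% in 3 lists.

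The calls were nested. All 49 members with RING1 in set A also had RNF2 in set A, as did 94.3% of all genes with RING1 there; 43% of all genes had both. All 19 members with RNF2 in set B had RNF2 in set A, as did 95.8% of all such genes; 20.8% of all genes had RNF2 in both. The members therefore fell into 5 classes: 21 had no peak (40.6% of all genes had none), 13 had RNF2 of set A alone (15.5%; 11.4% of all genes), 31 had RING1 and RNF2 of set A (36.9%; 23.9%), 18 had these and RNF2 of set B (21.4%; 17.8%), and 1, RPS15, had RNF2 in both sets without RING1 (1.19%; 1.66%). Overlaps of peaks were counted at members only, with no share over all genes beside them. In 47 of the 49 members with both antibodies in set A, a RING1 and an RNF2 peak overlapped by at least 1 bp. In 18 of 19 members with RNF2 in both sets, the peaks of the sets overlapped. The exception was RPL17, whose only RNF2 peak in set A lay at its 3′ end, next to C18orf32, and whose set B peak covered its start, in the window of the readthrough gene RPL17-C18orf32. Set A peaks at the 19 members had a median RNF2 fold of 4.36 and a median width of 1274 bp. At the 44 members with RNF2 in set A but not in set B the medians were 4.04 and 786 bp. The fold is the authors' value per peak over the background of the peak caller, and lists do not share a scale, so folds are ranked against other peaks only within a list.

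The counts were split by subunit. RNF2 of set A was at 18 of 32 small subunit genes (56.2%) and at 42 of 49 large subunit genes (85.7%). RING1 of set A was at 14 (43.8%) and 32 (65.3%), and RNF2 of set B at 4 (12.5%) and 14 (28.6%). The shares of both subunits are read against 56.1% (RNF2 set A), 45.6% (RING1 set A) and 21.7% (RNF2 set B) of all genes. With 5′ ends only, RNF2 of set A was at 52.0% and 76.9%, against 55.9% of all genes with an entry. Among CpG-rich promoters it was at 12 of 24 and 32 of 38, against 75.4% of all genes of that class. A stricter limit on the authors' significance value was −log10 q 5 or more. With it the RNF2 shares of set A were 15.6% and 24.5%, against 15.7% of all genes. The median CpG ratio was 0.901 for the small and 0.889 for the large subunit. Whether the difference between the subunits exceeds chance was not tested.

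**Figure D2:**
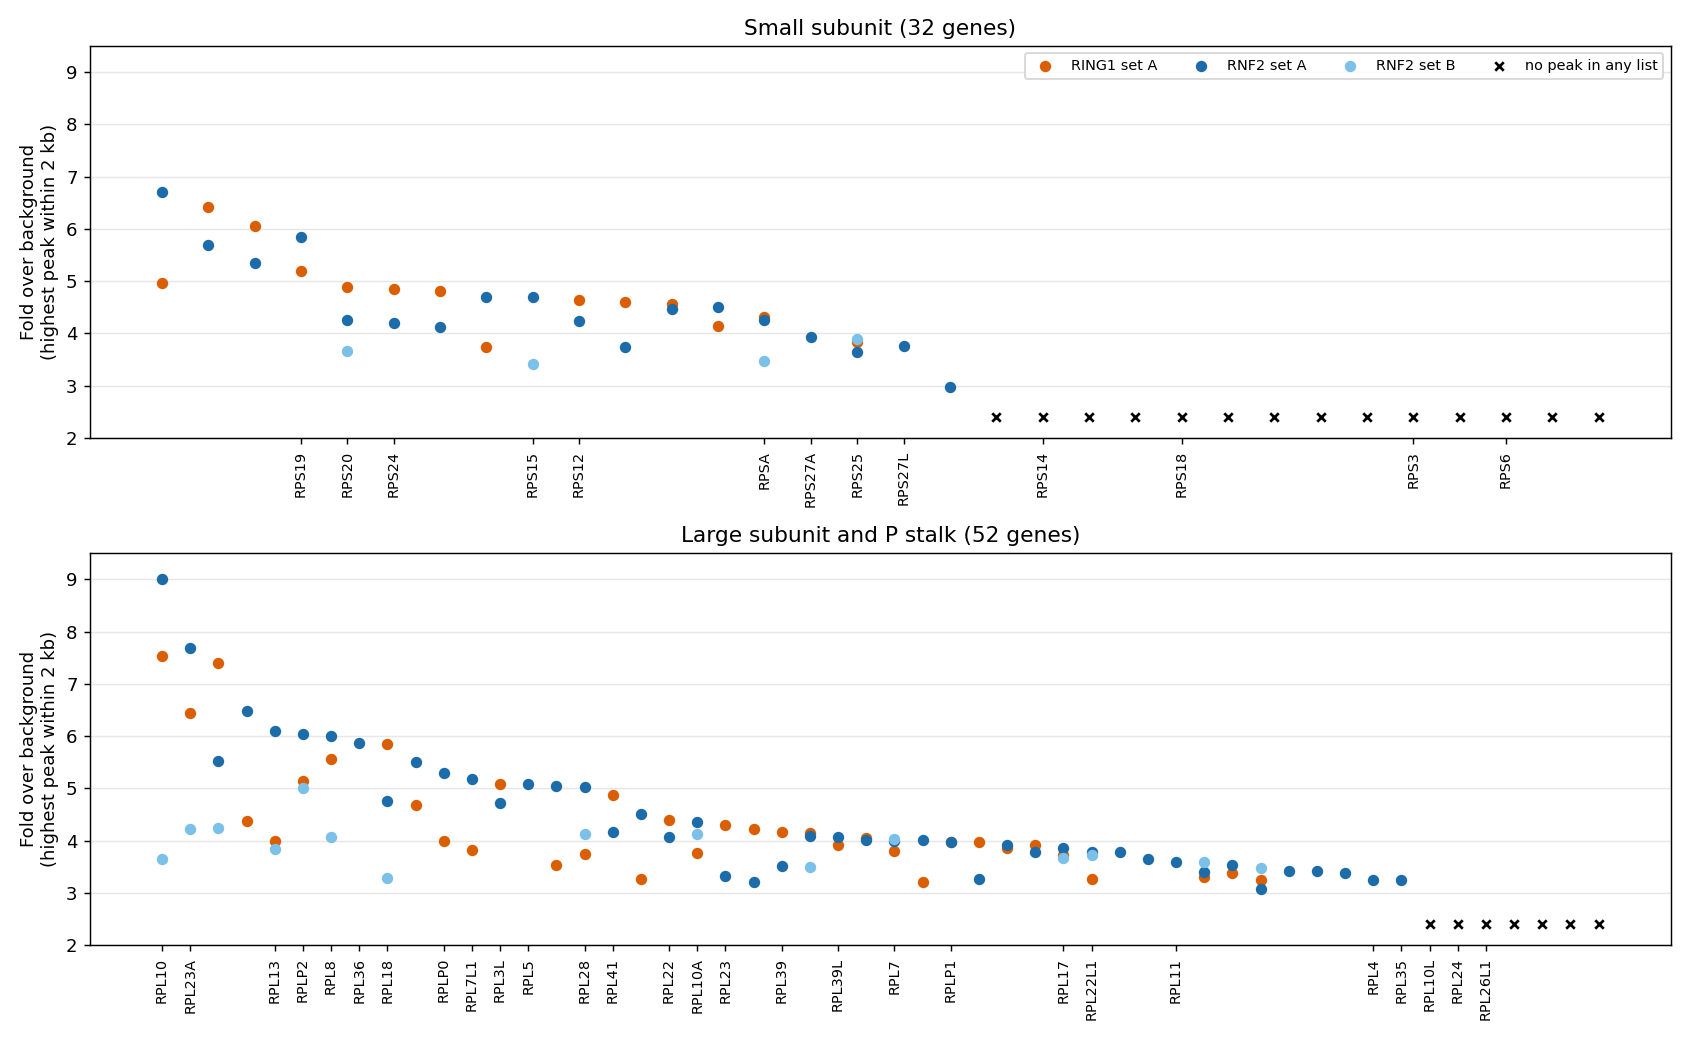
Fold over background of the highest peak within 2 kb of either end (y axis) for each of the 84 members (x axis, ordered by their highest value; some genes described in the text are labelled), with the small subunit above and the large subunit and P stalk below. Points are the 3 lists with any peak at a member and crosses are members without one; 14 crosses stand in the small subunit and 7 in the large, and RPL10 has the highest value, 9.0 in RNF2 set A.

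The small subunit binds the mRNA and reads its codons. RPSA, a protein of the subunit's back that is also known as the laminin receptor precursor, had a RING1 fold of 4.31 in set A and RNF2 folds of 4.26 (set A) and 3.47 (set B). RPS25, which internal ribosome entry sites contact, had 3.83, 3.64 and 3.89. RPS20 had 4.89, 4.25 and 3.67. Each of these 3 genes was called in RING1 set A and both RNF2 lists. RPS15 had RNF2 folds of 4.69 and 3.42 and no RING1 peak. RPS12 had the widest set A RNF2 peak of the subunit, 2305 bp with a fold of 4.23. RPS27A, made as a fusion with ubiquitin, had an RNF2 peak of set A alone (323 bp, fold 3.94).

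The 14 small subunit genes without a peak included RPS3, RPS4X, RPS6, RPS7, RPS9, RPS10, RPS14, RPS15A, RPS18, RPS21, RPS23, RPS27 and RPS28. RPS6 is the classical substrate of the S6 kinases, and RPS3 lines the mRNA entry channel. The nearest RNF2 peak of set A lay 28757 bp from RPS6, 7109 bp from RPS3 and 316570 bp from RPS18. RPS27, at 3600 bp, was the nearest to the window among them. In this list RPL24 (3448 bp) was the nearest member outside the 2 kb limit and RPL17 (735 bp) the farthest inside it. For RING1 of set A these were RPL36 (2963 bp) and RPL38 (1373 bp), and for RNF2 of set B RPS2 (2343 bp) and RPL28 (705 bp).

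The large subunit forms the peptide bond and holds the exit tunnel. RPL10, an X-linked protein near the catalytic centre, had the highest fold of any member in both set A lists and was singled out after its values were seen. It had a RING1 fold of 7.53 and an RNF2 fold of 9.0 in set A, above 97.7% and 98.2% of the peaks of those lists. In set B its RNF2 fold was 3.66, at the 47.0 percentile of that list. The RNF2 peaks were 1437 bp and 881 bp wide and covered the start of RPL10 in both sets. RPL10 was thus high in set A and near the middle in set B.

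Members were ordered for naming by the smaller of their RNF2 folds in both sets, although these are on different scales, and the leading 10 members included RPLP2, RPL23A, RPL10A, RPL28, RPL8, RPL7, RPL13, RPL22L1 and RPL17. RPL28 (chromosome 19, 55385932 to 55403342) had a RING1 fold of 3.74 in set A and RNF2 folds of 5.02 (set A) and 4.12 (set B), but the centre of its set B peak had an offset of -1097 bp from the start, in the window of TMEM238. RPL10A had 3.76, 4.36 and 4.12, with FANCE in the same window. RPL13 had 4.0, 6.10 and 3.85, with these peaks over its own start and no other gene in the window. RPL7 had 3.80, 4.0 and 4.04 beside RDH10. Each of these genes was called in 3 lists.

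RPL23A, which sits at the mouth of the exit tunnel, carried the widest peaks of any member in 3 lists. On chromosome 17 (28719985 to 28724359) it had 2 peaks in each of RING1 set A, RNF2 set A and RNF2 set B. The wider RNF2 peak of set A (28724085 to 28729084) was 5000 bp wide with a fold of 7.68, and those of RING1 set A and RNF2 set B were 4126 bp and 3389 bp wide. Each wider peak also lay within 2 kb of ends of NEK8 and TLCD1, and each narrower one within 2 kb of RAB34. Neither RING1 peak of set A covered an end of RPL23A itself. RPL8 was similar: its highest RNF2 peak of set A (fold 6.01, 2026 bp) covered no end of RPL8 and lay near ZNF34, while a peak of fold 3.79 covered an end of RPL8.

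The P stalk recruits the GTPase factors of elongation. Its 3 genes all had RING1 and RNF2 in set A, as did 43% of all genes. RPLP2 (chromosome 11, 809967 to 812876) had a RING1 fold of 5.14 and RNF2 folds of 6.04 (set A) and 5.00 (set B), the last above 91.4% of all peaks of its list. Its peaks also lay within 2 kb of PIDD1, the gene on the other side of its promoter. RPLP0 had 3.99 and 5.30 in set A and RPLP1 had 3.97 and 3.98, and neither had a set B peak.

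RPL5 and RPL11 travel with the 5S ribosomal RNA and, like RPL23, bind the p53 ligase MDM2 when ribosome assembly fails. RNF2 of set A, which was at 56.1% of all genes and 75.4% of those with a CpG-rich promoter, was at all 3 genes, with folds of 5.09 at RPL5, 3.60 at RPL11 and 3.32 at RPL23. RPL23 alone had RING1 (4.30), and none had a set B peak. The RPL5 peak was 260 bp wide and also near DIPK1A. Against the same shares, all 5 genes of the exit tunnel had RNF2 in set A: RPL4 (3.25), RPL17 (3.86), RPL39 (3.52), RPL23A (7.68) and RPL35 (3.24). Apart from RPL23A, these 4 values lay below the list's median fold of 4.04.

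Among 19 genes mutated in Diamond-Blackfan anaemia, a failure of red cell production, RNF2 of set A was at 13 (68.4%, against 56.1% of all genes), RING1 of set A at 9 (47.4%, against 45.6%) and RNF2 of set B at 2 (10.5%, against 21.7%), RPL15 and RPL18. RPS19, the gene first linked to the disease, had a RING1 fold of 5.19 and an RNF2 fold of 5.84 in set A. RPS24 had 4.85 and 4.20. RPS7 had no peak. RPL18 had 5.85 and 4.76 in set A and an RNF2 fold of 3.28 in set B.

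Paralogs stand beside the usual subunit in some tissues, and 5 of the 7 had RNF2 in set A (71.4%, against 56.1% of all genes). RPL22L1, the paralog of RPL22, had a RING1 fold of 3.26 and RNF2 folds of 3.78 and 3.72, with these peaks over its start. RPL22 had 4.39 and 4.07 in set A and none in set B. RPL3L, the striated muscle paralog of RPL3, had 5.09 and 4.73 in set A, but these peaks covered neither of its ends and lay near MSRB1. RPL7L1 had 3.83 and 5.19, and RPL39L, best known from testis, had 3.91 and 4.08. RPS27L, a p53 target, had RNF2 alone (3.77). RPL10L, a testis gene of 772 bp, and RPL26L1 had no peak. The nearest RNF2 peak of set A lay 1022839 bp from RPL10L and 4725 bp from RPL26L1.

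Other large subunit genes without a peak were RPL9, RPL24, RPL29, RPL30 and RPL37A. RNF2 without RING1 in set A was found at 14 members, against 13.1% of all genes. Of these, RPL36 (5.86), RPL5 (5.09), RPS15 (4.69), RPS27A (3.94), RPL32 (3.78) and RPS27L (3.77) had the highest RNF2 folds. The reverse, RING1 without RNF2 in set A, was found at no member, against 2.62% of all genes. The RPL36 peak of RNF2 covered its start and also lay near HSD11B1L and LONP1.

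Most peaks at members with a known strand lay near gene starts, and some lay at 3′ ends. The promoter entries give the strand for 67 members. RNF2 of set A was within 2 kb of the 5′ end alone in 37, of both ends in 9 and of the 3′ end alone in 3. At 5′ ends the count was 46 of 67, against 55.9% of all genes, and at 3′ ends 12 of 67, against 10.3%. RING1 of set A was at 35 of these 5′ ends, against 44.7% of genes, and at 6 of the 3′ ends, against 8.67%. RNF2 of set B was at 14, against 20.3%, and at 1, against 4.8%. Short genes let 1 peak meet both ends, as at RPL41, which encodes a very short peptide. The RNF2 peak of set A at RPL41 was 3687 bp wide over a gene of 1335 bp, with PA2G4 and ZC3H10 in the window.

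An annotated start lay inside 36 of 54 RNF2 peaks of set A (66.7%), 22 of 41 RING1 peaks (53.7%) and 13 of 14 RNF2 peaks of set B (92.9%). Over all genes with an entry these shares were 72.1%, 62.8% and 57.4%. Starts are those of the promoter entries. The RNF2 peak of set A at RPL6 covered the annotated 5′ end of that gene, yet it counts here as holding no start. Its centre is scored at -7477 bp from the entry inside the gene. The median centre lay 59 bp before the start for RNF2 in set A, 138 bp before it for RING1, and 41 bp after it for RNF2 in set B. An end of another protein-coding gene lay within 2 kb of 29 of 70 RNF2 peaks of set A, 23 of 56 RING1 peaks and 10 of 20 RNF2 peaks of set B. Of all peaks at gene ends, 21.8%, 22.3% and 22.6% lay near at least 1 more gene, and whether the members differ from these was not tested.

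**Figure D3:**
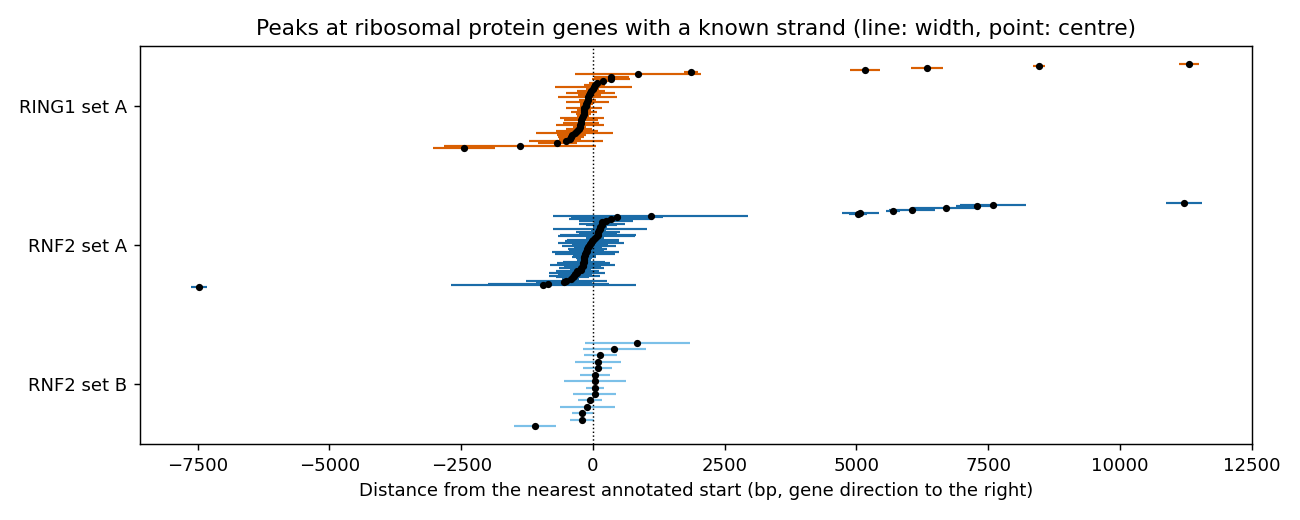
Peaks at members with a known strand by distance from the nearest annotated start (x axis, bp, gene direction to the right), 1 line per peak with its width and a point at its centre, for the 3 lists with peaks. Most centres lie within 500 bp of a start (31 of 41 for RING1 set A, 40 of 54 and 12 of 14 for RNF2 in sets A and B), and the peaks on the far right lie at 3′ ends. Over all genes with an entry, 65.5%, 66.2% and 55.9% of centres lie that near, in the same order. The peak on the far left is that of RPL6, whose promoter entry begins inside the gene.

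Member peaks were narrow beside wide Polycomb domains, taken as peaks of at least 5 kb in the same list and not at a member. In RNF2 set A, 70 distinct peaks at members had a median width of 880 bp (260 to 5000 bp), and 743 wide domains had 8445 bp, a ratio of medians of 9.6. In RING1 set A the medians were 550 bp for 56 peaks (224 to 4126 bp) and 9374 bp for 471 domains, a ratio of 17.1. In RNF2 set B they were 794 bp for 20 peaks (331 to 3389 bp) and 9022 bp for 399 domains, a ratio of 11.4. The lower limit of 5 kb fixes much of these ratios, because the median peak of each list was also narrow. All peaks had median widths of 973 bp (RNF2 set A), 704 bp (RING1 set A) and 779 bp (RNF2 set B). Peaks at ends of other protein-coding genes had medians of 1126, 791 and 920 bp in the same order. RPL23A was the only member to reach 5 kb in any list, at exactly that limit.

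Folds at members were close to the middle of each list. The median was 4.09 in RNF2 set A, where all peaks had 4.04 and wide domains 6.73. It was 4.09 in RING1 set A, against 3.99 and 6.56, and 3.70 in RNF2 set B, against 3.69 and 5.62. Ranked within their list, wide domains stood at median percentiles of 94.3 (RNF2 set A), 95.6 (RING1 set A) and 95 (RNF2 set B), and member peaks at 52.0, 55.3 and 50.4. The median fold of wide domains was exceeded by 2 members in RNF2 set A, RPL10 and RPL23A, by 2 in RING1 set A, RPL10 among them, and by none in RNF2 set B. The stricter limit, −log10 q 5 or more, was met by 21 of 70 member peaks in RNF2 set A (30.0%; 18.8% of all peaks), by 11 of 56 in RING1 set A (19.6%; 11.9%) and by 0 of 20 in RNF2 set B (8.0% of all peaks). Peaks at ends of other protein-coding genes met it in 24.4%, 14.9% and 10.4%, and had median folds of 4.24, 4.11 and 3.80.

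**Figure D4:**
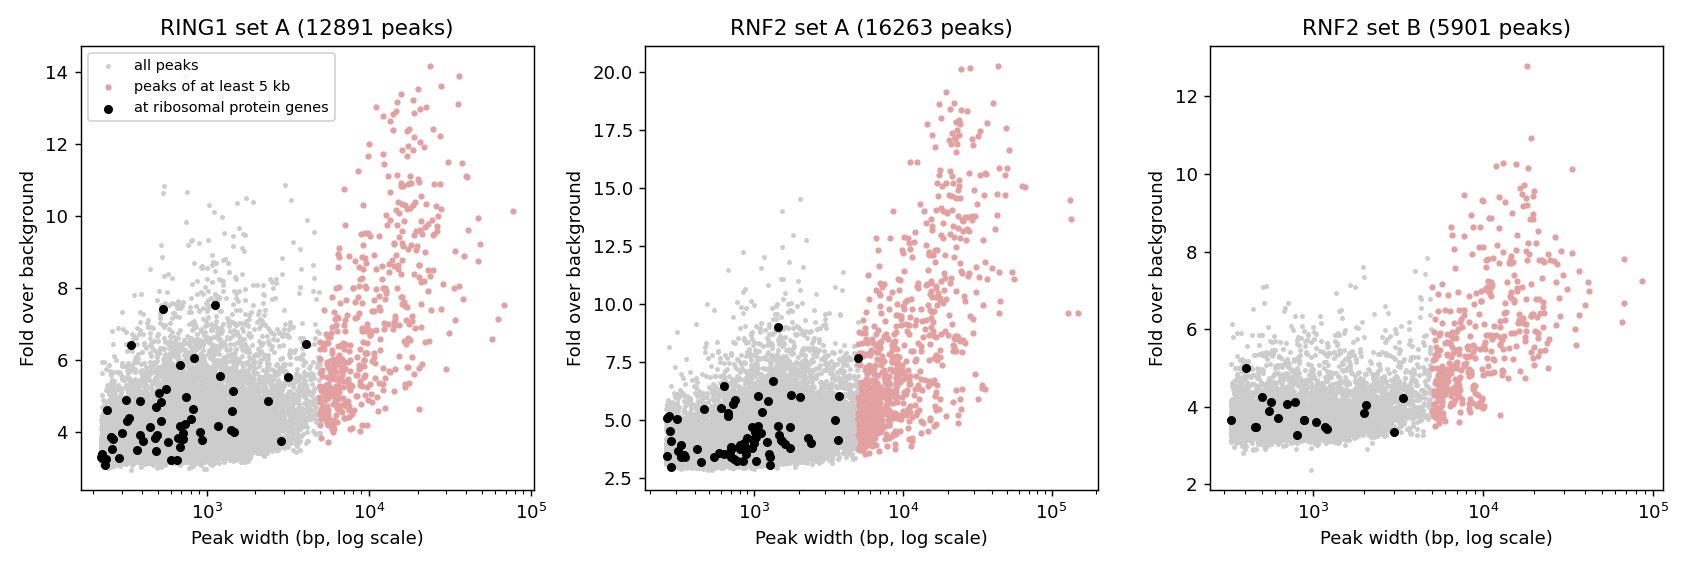
Peak width (x axis, bp, log scale) against fold over background (y axis) for every peak of 3 lists, with peaks of at least 5 kb in red and peaks at ribosomal protein genes in black. The black points stay at or below 5000 bp and at or below a fold of 9.0, whereas red points reach 20.3 in RNF2 set A.

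HOX cluster genes gave the reference at the other end. All 39 were called in RING1 set A and in both RNF2 lists. Of all genes, 45.6% (RING1 set A), 56.1% (RNF2 set A) and 21.7% (RNF2 set B) were. RING1 of set B was at 22 of the 39 (56.4%), against 1.32% of all genes. The 5 RNF2 peaks of set A at HOX cluster genes had a median width of 132152 bp. The medians were 24596 bp in RING1 set A, 19567 bp in RNF2 set B and 1120 bp in RING1 set B. HOXD10 to HOXD13 shared a peak with an RNF2 fold of 14.5 in set A and one of 7.81 in RNF2 set B, where the highest member, RPLP2, had 5.00. RNF2 peaks of at least 5 kb in set A, here with the one at RPL23A itself, lay within 100 kb of 7 members (8.33%), against 9.35% of all genes. The nearest beyond that of RPL23A were those at 13977 bp from RPLP2 and 14975 bp from RPL18.

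Other genes of the translation apparatus were counted the same way. For RNF2 set A, RING1 set A and RNF2 set B, the shares of all genes to read them against are 56.1%, 45.6% and 21.7%. Of 38 translation factors 34 (89.5%), 25 (65.8%) and 8 (21.1%) were called in these lists, with median RNF2 widths of 897 bp and 644 bp. EIF5A, a factor that relieves stalled ribosomes, had a RING1 fold of 9.29 and RNF2 folds of 7.73 and 4.0, and EIF5B, which joins the subunits, had 4.18, 6.24 and 4.69. Of 43 ribosome biogenesis genes 36 (83.7%), 34 (79.1%) and 16 (37.2%) had these peaks, with NCL, the nucleolar protein nucleolin, at RNF2 folds of 7.17 and 4.58. Of 76 mitochondrial ribosomal protein genes 50 (65.8%), 39 (51.3%) and 14 (18.4%) did, with MRPS34 at 7.41 and 5.11. RING1 of set B was at none of the genes of these 3 lists, against 1.32% of all genes. Among 6 ribosomal proteins outside the symbol rule, RACK1 and RPL36AL had RING1 and RNF2 in set A, and FAU, RPS4Y1 and RPS4Y2 had no peak.

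The CpG ratio overlapped between members with and without peaks. In the 18 members without a peak it ranged from 0.713 to 1.08 with a median of 0.872. In the 13 called in these 3 lists (RING1 set A and both RNF2 lists) it ranged from 0.755 to 1.4 with a median of 0.961. CTCTTT or CTTTC near the start was present in 11 of 18 members without a peak (61.1%) and in 16 of 49 with RNF2 in set A (32.7%). Taking any annotated start of a gene in place of the outermost one, the second count became 20 of 49 (40.8%) and the first did not change. Neither difference was tested.

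**Figure D5:**
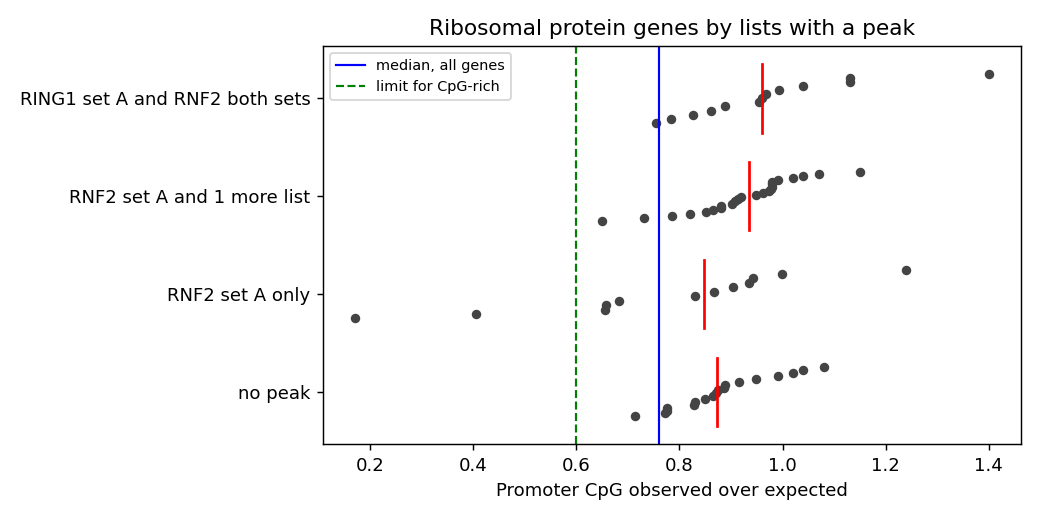
Promoter CpG ratio, observed over expected (x axis), of the 67 members with an entry, grouped by the lists that hold a peak (y axis; the group with 1 more list joins the 2 classes with peaks in exactly 2 lists). Each point is 1 gene and red bars are medians, which run from 0.849 to 0.961; the solid line is the median of all genes, 0.761, and the dashed line the limit of 0.6.

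The authors' consolidated file, 3 columns of region coordinates without a measurement, held a region within 2 kb of 18 members (21.4%), against 21% of all genes. All 18 were among the 19 members with RNF2 in both sets, and RPL17 was the one left out. The regions share limits with the peaks of these lists, so this match is no separate support. At RPL10, for example, the region ran from 154397443 to 154398880 and the RNF2 peak of set A from 154397444 to 154398880. The 20 regions at members had a median width of 1465 bp, and all 4255 regions had 2100 bp.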

How the data were processed

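The measurements were CUT&RUN peaks of RING1 and RNF2 in wild-type neural progenitor cells. Per the submitters' processing notes, which give no roles, MACS2 2.2.9.1, BWA 0.7.17, deepTools 3.5.2, Picard 2.8.1, SAMtools 1.9, bedtools 2.30.0 and genome build hg38 were involved. The deposited lists are in broad peak format, 1 per antibody and set, and so were taken as called per library; the control is not stated in these sources. The authors' deposited fold is a ratio over background per peak. The deposited significance is −log10 q, whose lowest values lie just above 1. In each list, 2 more columns of values, the display score and the −log10 p, were not used (8 in all).

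From chromosomes 1 to 22, X and Y, peaks were assigned to genes with at least 1 bp within 2 kb of a gene end (RefSeq, GRCh38.p14, the assembly of hg38). Where a member had several peaks, the highest fold was used. Strand and promoter sequence came from the RefSeq promoter table, taking the outermost start. Lists have 1 library each, so values carry no SD and no test was run. The labels do not say whether libraries came from separate cultures.

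Members and gene lists were chosen with earlier results of these data known. Named genes follow a rule: the leading 10 by the smaller RNF2 fold, those without peaks, the 5 widest per list, subgroup members, those with RNF2 alone, and up to 4 per comparison list. RPL10 and the displayed promoters, and the genes given with their distances or just at a limit, were chosen after their values were seen. Results for some genes are not reported here. Alternatives were other windows, a stricter q, equal list lengths, other gene sets and other domain limits. Gene assignment was tested on simulated data: 200 of 200 peaks planted 1500 bp from a gene end were assigned, and 0 of 200 at 2600 bp. Python 3.11.15, numpy 2.4.6, pandas 2.3.3 and matplotlib 3.10.9 were used.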

Additional observations from a re-analysis of the deposited data

How the results depend on the processing

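Counts followed the length and stringency of the lists. Among peaks with −log10 q 5 or more, the members with a peak fell to 10 for RING1 set A (7.97% of all genes), 19 for RNF2 set A (15.7%) and 0 for RNF2 set B (2.56%), with 8 for both antibodies in set A (6.96%) and 0 for RNF2 in both sets (2.41%). When lists were cut to the length of the shortest (659 peaks, by q), the counts were 3 for RING1 set A (3.7% of all genes), 3 for RNF2 set A (3.91%) and 1 for RNF2 set B (3.55%). With set A lists shortened to the length of set B, an alternative chosen after seeing the data, RING1 set A had 3 and RNF2 set A had 28 members (27.4% of all genes). Leaving out 1 set gave 0 to 49 members for RING1 and 19 to 63 for RNF2 in place of the counts in both sets. Domains of at least 10 kb gave width ratios of 30.9 (RING1 set A), 20.4 (RNF2 set A) and 20.3 (RNF2 set B), and peaks at HOX cluster genes gave 44.8, 150.0 and 24.6. Member peaks at the stricter q gave 8.35 for RING1 set A. The fold ratio of RNF2 set A moved from 1.65 to 2.58 with domains of 10 kb and to 2.48 with HOX cluster peaks. Windows of 1 kb and 5 kb left the counts per list, in both sets and with both antibodies within 1.5 times. Gene bodies, 5′ ends, chromosomes 1 to 22, members without paralogs and distinct peaks, run for the counts per list, left these within 1.5 times. The ratios at the stricter q need at least 3 member peaks, so none was computed for RNF2 set B. No paired analysis was possible because the lists carry no replicate number and no result comes from a test. Without read depth, a missing peak is no evidence of absence.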
